A study of Mus musculus with 8 samples.

Results

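The 33 genes described here encode proteins of myelin and factors of the oligodendrocyte lineage, and they were chosen by name, as every array probe annotated to a member of a fixed list of myelin proteins, oligodendrocyte transcription factors and precursor genes. They were represented by 61 of the 56605 probes that were tested. RNA from the dissected cerebral cortex and striatum of 4 male B6 mice (C57BL/6J) and 4 male BTBR/R mice (BTBRTF/ArtRbrc) was measured on 8 Agilent 1-colour arrays, with 1 mouse on each array. All B6 mice were 4 months old, as were the BTBR/R mice except replicate 1, which was 6 months old. BTBR/R is an inbred subline that was compared with B6, and its authors propose that it may be a model of autism spectrum disorder. No mouse carried an introduced allele or received a treatment. The related BTBR/J subline lacks the corpus callosum, the largest myelinated tract between the hemispheres, whereas in BTBR/R that tract looked normal without having been quantified. The corpus callosum was not named as a part of the dissected tissue.

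Oligodendrocytes arise from precursor cells that divide under the control of platelet-derived growth factor, leave the cell cycle under a set of transcription factors that includes Olig2, Sox10 and Myrf, and then wrap axons in a lipid-rich membrane. The cytoplasmic faces of that membrane are held together by basic proteins, while other proteins sit at its outer surface or against the axon. In bulk tissue, fewer cells of a type and less RNA per cell cannot be told apart, and this holds for every difference below. Whether the sequence under a probe differs between the strains was not tested.

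Values are the log2 processed signal of a probe minus the 75th percentile of its array, called the scaled signal, and differences are BTBR/R minus B6 on this log2 scale. Signals of different probes were not compared as amounts of transcript, since probes differ in how well they bind, and brighter and dimmer refer only to the signal read. Detection in a mouse means that the scanner software set its flag for a spot well above background. The flag was set for 64.5% to 66.8% of all probes in the B6 mice and for 53.5% to 57.2% in the BTBR/R mice, and the lowest detected signal was 14.5 to 17.8 in B6 and 36.1 to 47.1 in BTBR/R. Arrays of the same strain shared 1 column of the single slide, so a slide column effect and a strain effect cannot be told apart.

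None of the member genes differed by 2-fold on a probe that was detected in all mice. Of the 61 probes, 46 were detected in all 8 mice and covered 32 of the 33 genes, the exception being Enpp6. None of these 46 probes had both an adjusted p below 0.05 (limma, Benjamini-Hochberg over all probes) and a change of at least 2-fold, where 2.20% of the 28547 probes detected in all 8 mice did. No difference reached 2-fold at any p, and 16 of the 46 probes had an unadjusted p below 0.05 in limma. At any fold, 8 of the 46 probes (17.4%) passed the adjusted p with a lower signal in BTBR/R, and 1 (2.17%) passed it with a higher signal. Over all 28547 probes, 13.9% passed with a lower and 13.0% with a higher signal. How the share of lower member probes stood against that of all detected probes moved with the setting. It was 28.3% against 14.8% with median scaling, 28.3% against 16.4% with limma's trend and robust options, 21.7% against 9.50% with a replicate block and 13.0% against 6.10% with spike-in scaling. It was 26.1% against 11.9% without B6 replicate 4, 21.7% against 12.0% without BTBR/R replicate 2 and 13.0% against 11.9% without BTBR/R replicate 3. When any other mouse was left out, the member share was below that of all detected probes. It was 10.9% against 11.9% without B6 replicate 1 and 10.9% against 12.0% without BTBR/R replicate 1. It was 8.70% against 10.5% to 11.7% without B6 replicate 2, B6 replicate 3 or BTBR/R replicate 4, where the 9 probes became 5. Quantile normalization gave 13.0% against 14.4%, the methods' t-test 15.2% against 15.0% and normexp background correction 19.6% against 13.4%.

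The sign of the differences was less even than that share. The difference was below 0 for 32 of the 46 probes (69.6%), against 49.7% of all probes detected in all 8 mice. The median difference of the 46 probes was -0.14, with a range from -0.80 to 0.48, and the median over all 28547 probes was 0.00. Scaling to spike-in probes shifts every difference by the same amount, which raised the median of all these probes to 0.12 and that of the members to -0.02. The 95% interval of the difference lay wholly within a 2-fold change for 44 of the 46 probes and within a 1.5-fold change for 35. The 2 intervals that went past 2-fold belonged to Mobp and Nkx2-2. The signal of all B6 mice and that of all BTBR/R mice did not overlap for 7 member probes that were lower (15.2%) and 1 that was higher (2.17%), where the corresponding shares of all detected probes were 16.4% and 16.3%.

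**Figure D1:**
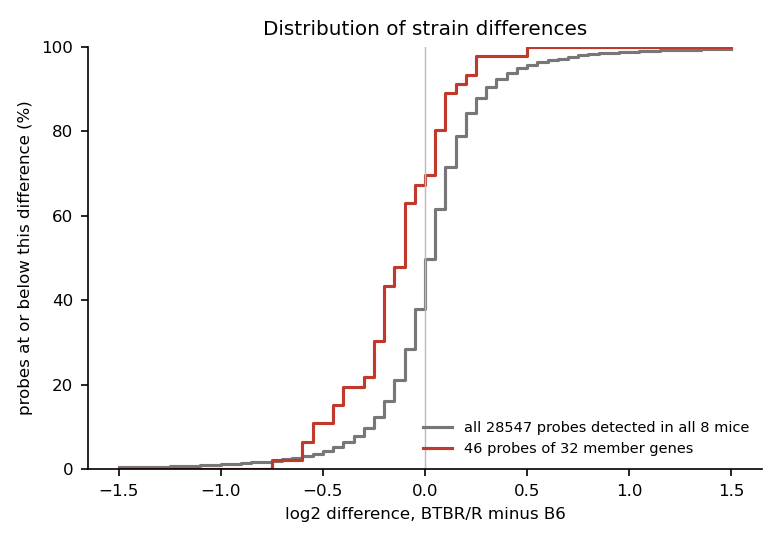
Share of probes (percent, vertical axis) at or below each log2 difference of BTBR/R minus B6 (horizontal axis), for the 46 member probes and for all 28547 probes detected in all 8 mice. The member curve lies to the left, with a median of -0.14 against 0.00.

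**Figure D2:**
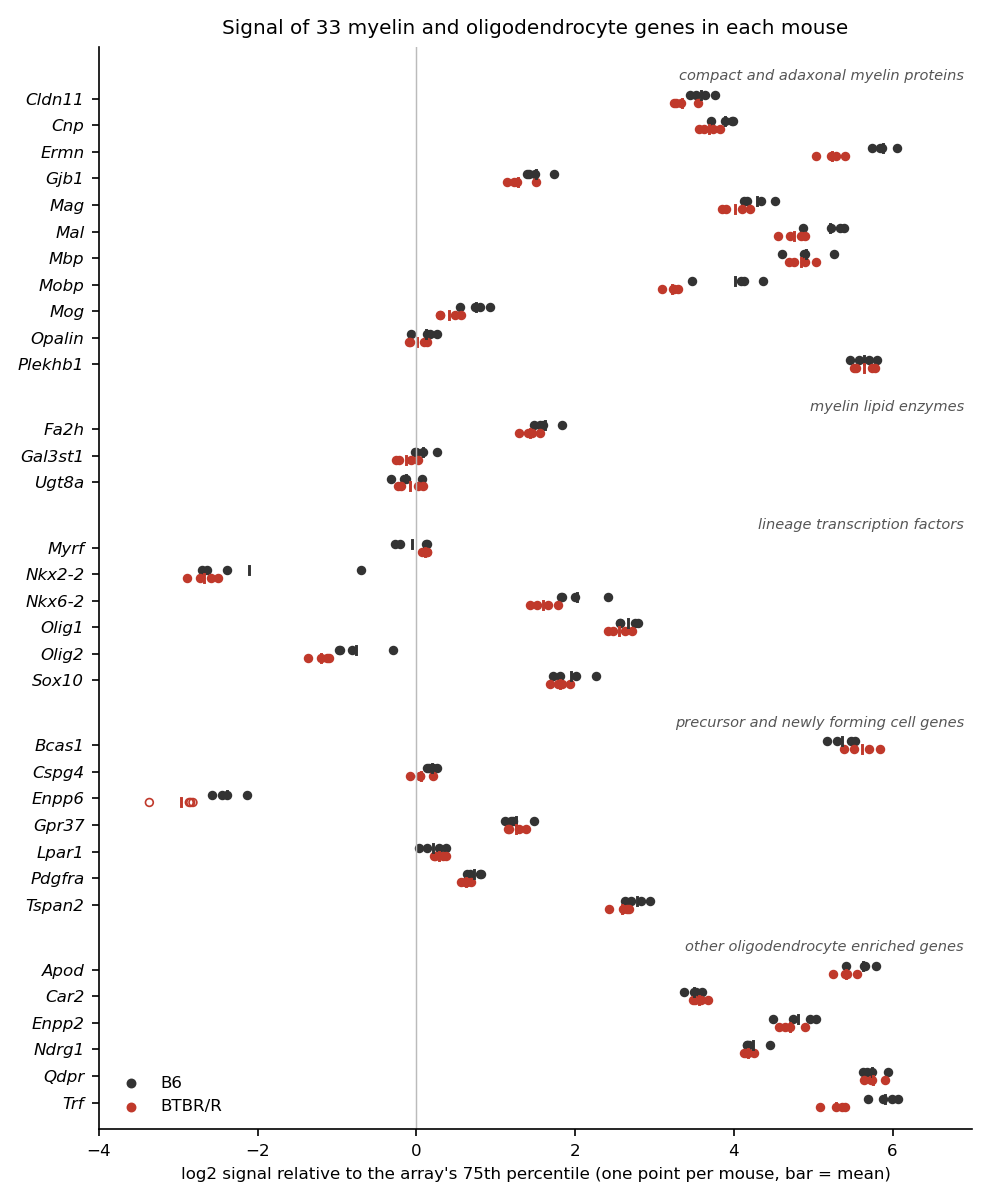
Scaled log2 signal of 1 representative probe for each of the 33 genes, with 1 point per mouse and a bar at the mean of each strain. Open points mark Enpp6 in BTBR/R, where the probe was above background in 3 of 4 mice. The strains do not overlap for Ermn, Mobp, Trf, Olig2, Nkx6-2 and Enpp6.

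The proteins that build and line the myelin sheath held 5 of the 8 lower probes and also the most detected probes of any group. Of the 16 probes of these 11 genes that were detected in all mice, 5 fell (31.3%), 1 rose (6.25%) and 10 did not pass the test, where 13.9% of all detected probes fell and 13.0% rose. Their median difference was -0.25. The probes that fell belonged to Ermn, Mobp, Mal and Mog. These counts rest on all 8 mice. Without B6 replicate 2, B6 replicate 3 or BTBR/R replicate 4, only Ermn and the brighter of 2 Mobp probes still passed as lower in this group. All detected probes then fell at shares of 10.5% to 11.7%.

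Ermn encodes ermin, an actin-binding protein of the oligodendrocyte cytoskeleton. Its scaled signal was 5.87, 5.84, 6.06 and 5.74 in B6 mice 1 to 4, and 5.40, 5.04, 5.22 and 5.28 in BTBR/R mice 1 to 4. Every BTBR/R mouse lay below every B6 mouse. The difference was -0.64 ± 0.10 (SE), a 1.56-fold lower signal with an adjusted p of 0.0015 in limma.

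Mobp encodes a basic protein of compact myelin and was read by 2 probes. The brighter one gave 4.09, 4.12, 4.36 and 3.47 in B6 mice 1 to 4, and 3.24, 3.30, 3.23 and 3.10 in BTBR/R mice 1 to 4. The strains did not overlap, although B6 replicate 4 lay nearer to the BTBR/R mice than to the other B6 mice, and the 4 BTBR/R mice were close together. The difference of -0.80 ± 0.18 (SE), or 1.74-fold, was the largest among the 46 probes and had an adjusted p of 0.011 in limma. The other Mobp probe differed by -0.45 ± 0.13 (adjusted p = 0.029), and on it B6 replicate 4, at 1.83, lay below BTBR/R replicate 2, at 1.88. That call was lost when any 1 of B6 replicates 1, 2 and 3 or BTBR/R replicates 1, 3 and 4 was left out, with an adjusted p of up to 0.074.

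The representative probes of Ermn, Mobp and Trf, whose lower signals kept an adjusted p below 0.05 under all 18 alternative settings of the processing or test, 8 of which left out 1 mouse, are shown so that the measured transcript can be located. Each line gives the first 30 of the 60 bases of the probe in the sense of the transcript, from the array design, with the mm9 position of those 30 bases. The Ermn stretch lies at chr2:57900500-57900529 on the minus strand, the Mobp stretch at chr9:120085150-120085179 on the plus strand and the Trf stretch at chr9:103111237-103111266 on the minus strand.
Ermn: ttgacatcttgcattctaagtgtgacgagg
Mobp: gatttatcctgtctccagttatctggcact
Trf: tcttcgctgctgtgccttaccacatacaca
No genome annotation of mm9 was used here, so the exon or untranslated region that holds each stretch is not given.

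Mal encodes a proteolipid of membrane rafts, and its scaled signal was 5.23, 5.33, 5.39 and 4.87 in B6 mice 1 to 4 and 4.71, 4.85, 4.90 and 4.56 in BTBR/R mice 1 to 4. B6 replicate 4 fell within the BTBR/R range, and the difference was -0.45 ± 0.13 (adjusted p = 0.029, limma). Mog encodes a glycoprotein of the outermost myelin surface. Its representative probe gave 0.92, 0.74, 0.80 and 0.55 in B6 mice 1 to 4 and 0.49, 0.56, 0.29 and 0.30 in BTBR/R mice 1 to 4, with BTBR/R replicate 2 just above B6 replicate 4. The difference was -0.35 ± 0.10 (adjusted p = 0.030, limma). The calls of Mal and Mog were each lost under 6 of 18 alternatives, 5 of which left out 1 mouse, whereas those of Ermn and of the brighter Mobp probe held under all 18.

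Mbp, the basic protein that compacts the cytoplasmic faces of the membrane, gave probes in both directions. One probe gave 2.78, 2.69, 2.65 and 2.87 in B6 mice 1 to 4 and 3.17, 3.16, 3.21 and 3.37 in BTBR/R mice 1 to 4, so every BTBR/R mouse was higher. Its difference was 0.48 ± 0.07 (SE), a 1.39-fold rise with an adjusted p of 0.0014 in limma, and it held under all 18 alternatives. The array annotation ties this probe to another transcript variant than the remaining 2 Mbp probes, which differed by -0.07 (95% interval -0.41 to 0.27) and -0.24 (-0.48 to 0.01) and did not pass the test. The mean over the 3 probes was 0.06, so no single direction can be given for the gene.

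For the other myelin proteins, no probe detected in all mice passed the test. Mag, the adhesion molecule of the membrane against the axon, differed by -0.28 (95% interval -0.55 to -0.01, adjusted p = 0.097) and -0.26 (-0.48 to -0.05, adjusted p = 0.055) on 2 probes. Cldn11, a tight junction protein of the sheath, differed by -0.24 (-0.47 to -0.02, adjusted p = 0.086) and Cnp, a phosphodiesterase of the uncompacted membrane, by -0.21 (-0.41 to -0.00, adjusted p = 0.098). Cldn11 passed with limma trend and robust, at -0.24, and without BTBR/R replicate 2, at -0.31, and Cnp with median scaling, at -0.23, and without B6 replicate 4, at -0.27. Gjb1, a gap junction connexin, differed by -0.23 (-0.47 to 0.02). Plekhb1, a membrane-associated protein with a pleckstrin homology domain, had a difference of 0.00 and an interval from -0.22 to 0.23.

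**Figure D3:**
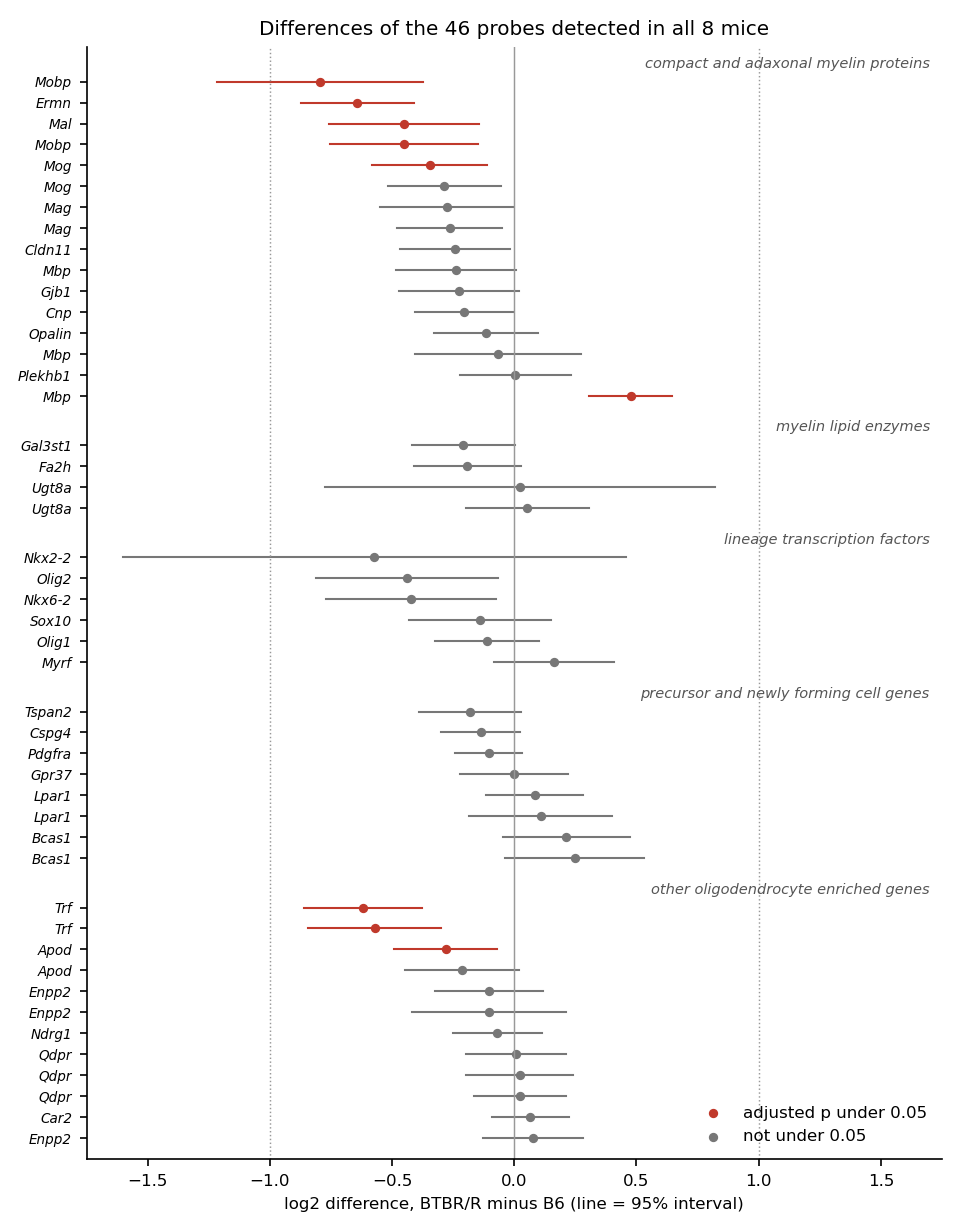
Log2 difference of BTBR/R minus B6 (horizontal axis) for each of the 46 probes detected in all 8 mice, with its 95% interval as a line and dotted lines at a 2-fold change. Red marks the 9 probes with an adjusted p below 0.05, of which 8 lie below 0 and 1, of Mbp, above it.

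Opalin, a glycoprotein found on mature oligodendrocytes, also gave unequal probes. The representative probe, which was split by an intron, read 0.17, 0.14, 0.26 and -0.07 in B6 mice 1 to 4 and 0.13, 0.09, -0.10 and -0.08 in BTBR/R mice 1 to 4. The strains overlapped, and the difference was -0.12 (95% interval -0.33 to 0.10, adjusted p = 0.36). The dimmer probe read -3.43, -3.19, -3.16 and -3.84 in B6 and -4.13, -4.58, -4.92 and -4.38 in BTBR/R, where it was not well above background in any mouse. Its difference of -1.10 ± 0.21 had an adjusted p of 0.0048 in limma, and against the detection limits of the BTBR/R arrays the signal was at least 1.23-fold lower. The adjusted p stayed below 0.05 under all 17 alternatives in which the probe was tested, but the difference was under 2-fold with normexp background correction (-0.37), with spike-in scaling and without BTBR/R replicate 3.

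The Opalin probes lie in different parts of the gene, and the first 30 of the 60 bases of each are shown for comparison. The representative probe lies between chr19:41138452-41141030 (mm9, minus strand), across an intron, and the printed bases of the dimmer probe lie at chr19:41136587-41136616 on the same strand.
Opalin representative: tgtgaaatttcagaactctatgacaatccc
Opalin dimmer: cctctggttgtttagaaatagttggatttc

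A dim Cnp probe was detected in all B6 mice and in no BTBR/R mouse, and its scaled signal was -3.77, -4.08, -3.78 and -3.81 in B6 and -4.40, -4.53, -4.71 and -4.66 in BTBR/R. The strains did not overlap (adjusted p = 0.00087, limma), but no bound on the fold could be given because the B6 mean lay below the mean of the BTBR/R detection limits. Over 17 alternatives its difference of -0.72 ran from -0.79 to -0.24. Another Mog probe, detected in 1 BTBR/R mouse, differed by -0.47 (adjusted p = 0.029), a call that was lost under 7 of 17 alternatives, over which it ran from -0.57 to -0.28.

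The enzymes of myelin lipids did not pass the test on any of their 4 probes detected in all mice, and 0 had an unadjusted p below 0.05 in limma or an adjusted p below 0.05 by the methods' t-test. Ugt8a, which makes galactosylceramide, differed by 0.05 (95% interval -0.20 to 0.31) and 0.02 (-0.78 to 0.82) on 2 such probes. The wide second interval came with a single mouse, BTBR/R replicate 2, at -0.49 where the other BTBR/R mice lay between -2.16 and -1.80. Gal3st1, which turns galactosylceramide into sulfatide, differed by -0.21 (-0.42 to 0.00) and Fa2h, which hydroxylates the fatty acids of these lipids, by -0.19 (-0.41 to 0.03). One more Ugt8a probe read -6.63, -7.48, -7.32 and -7.45 in B6 mice 1 to 4 and -6.14, -5.73, -5.81 and -5.89 in BTBR/R mice 1 to 4. It was called higher by 1.33 without overlap between the strains, but it was not well above background in any mouse and the call was lost with normexp background correction and with quantile normalization, under both of which its sign changed. It was 1 of the 61 member probes, where 20.2% of all 56605 probes were called higher and 2.27% lower. That balance rests on the setting, with 231 probes called higher and 332 lower with normexp background correction and 544 higher and 1656 lower with quantile normalization. Of the 14874 probes detected in no mouse, 67.7% were called higher.

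Among the lineage transcription factors, none of the 6 probes detected in all mice passed the test in limma, 2 had an unadjusted p below 0.05, and 0 passed by the methods' t-test. The difference was below 0 for 5 of them. Olig2, which specifies the lineage, read -0.29, -0.81, -0.96 and -0.97 in B6 mice 1 to 4 and -1.10, -1.13, -1.20 and -1.37 in BTBR/R mice 1 to 4. Nkx6-2, a homeodomain factor of maturing oligodendrocytes, read 2.42, 1.83, 1.999 and 1.83 in B6 and 1.78, 1.66, 1.42 and 1.52 in BTBR/R. For both genes the strains did not overlap, B6 replicate 1 stood above the other B6 mice, and the adjusted p missed the threshold, with -0.44 (95% interval -0.81 to -0.07, adjusted p = 0.064) for Olig2 and -0.42 (-0.77 to -0.07, adjusted p = 0.059) for Nkx6-2. Both passed with median scaling and with limma's trend and robust options, Olig2 also without B6 replicate 1, where its difference was smaller at -0.28, and Nkx6-2 also among probes detected on all 8 arrays and with a replicate block.

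The factors that drive myelin gene expression overlapped between the strains. Sox10, required at every stage of the lineage, differed by -0.14 (95% interval -0.43 to 0.15), Olig1, which acts in maturation, by -0.11 (-0.33 to 0.10) and Myrf, which switches on myelin genes, by 0.16 (-0.08 to 0.41). Myrf read 0.13, -0.27, 0.14 and -0.20 in B6 mice 1 to 4 and 0.14, 0.13, 0.10 and 0.07 in BTBR/R, so that the BTBR/R mice lay within the upper part of the B6 range. A second Myrf probe was detected in only 1 mouse. Nkx2-2, a homeodomain factor of newly forming oligodendrocytes, could not be placed, since B6 replicate 2 read -0.69 where the other B6 mice lay between -2.70 and -2.39, and its interval ran from -1.60 to 0.46. On its other probe, detected in 3 BTBR/R mice, the high values were instead those of BTBR/R replicates 1 and 2, at -1.87 and -0.96, where all other mice lay between -3.79 and -3.23.

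The genes of precursors and newly forming cells were divided in sign. None of the 8 probes detected in all mice passed the test in limma, and 0 had an unadjusted p below 0.05 or passed by the methods' t-test. Of the 8 differences, 4 were above 0 and 4 below, and their median was 0.04. The 4 above 0 came from only 2 genes, Bcas1 and Lpar1, and over the 6 representative probes 4 differences were below 0 and the median was -0.05. Bcas1 passed with spike-in scaling, at 0.36, and Cspg4 without BTBR/R replicate 2, at -0.19. Bcas1, a protein of cells that are starting to myelinate, read 5.52, 5.29, 5.48 and 5.18 in B6 mice 1 to 4 and 5.71, 5.84, 5.52 and 5.39 in BTBR/R mice 1 to 4. BTBR/R replicates 1 and 2 lay above all B6 mice and the others within their range, and the 2 Bcas1 probes differed by 0.25 (95% interval -0.04 to 0.53) and 0.21 (-0.05 to 0.47). Lpar1, a receptor for lysophosphatidic acid, differed by 0.08 (-0.11 to 0.28) and Gpr37, a G protein-coupled receptor of maturing cells, by -0.00 (-0.22 to 0.22). Tspan2, a tetraspanin, differed by -0.18 (-0.39 to 0.03).

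Pdgfra and Cspg4, which mark the precursor cells, were both read by a well-detected probe that did not pass the test. Pdgfra, the receptor for platelet-derived growth factor, differed by -0.11 (95% interval -0.24 to 0.03), and Cspg4, a surface proteoglycan, by -0.14 (-0.30 to 0.02). These intervals lie inside a 1.5-fold change in either direction. A dim Pdgfra probe, detected in all B6 mice and no BTBR/R mouse, differed by -0.77 (adjusted p = 0.043), a value that lost its call under 11 of 17 alternatives, over which it ran from -0.97 to -0.03, and no bound on the fold could be given.

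A second Cspg4 probe was called. It read -1.49, -2.65, -1.65 and -3.72 in B6 mice 1 to 4 and -4.59, -5.64, -4.11 and -5.16 in BTBR/R mice 1 to 4, and it was not well above background in any BTBR/R mouse. The strains did not overlap, although the B6 mice were themselves spread over more than a 4-fold range. The difference was -2.50 ± 0.56 (SE, adjusted p = 0.0099, limma), at least 2.51-fold against the BTBR/R detection limits. That bound is for the 75th percentile scaling with all 8 mice and does not hold for every setting, since the difference with normexp background correction was -1.10, a smaller fold. The call held under all 17 alternatives in which the probe was tested, with differences from -2.94 to -1.10. The other dim Cspg4 probe was detected in no mouse. The first 30 of the 60 bases of the 2 detected probes are shown because they gave unequal answers for 1 gene, and both lie on the plus strand of mm9, at chr9:56746627-56746656 for the representative probe and at chr9:56743936-56743965 for the dimmer one.
Cspg4 representative: ctgacccagaactattgcagttttgccgga
Cspg4 dimmer: ccctctctcgagaaaaaagaaaaagtaaat

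Enpp6, a choline phosphodiesterase of newly forming oligodendrocytes, had no probe detected in all mice. Its brightest probe read -2.14, -2.57, -2.38 and -2.45 in B6 mice 1 to 4, and -2.84, -2.82, -3.36 and -2.86 in BTBR/R mice 1 to 4, of which 3 were well above background. The strains did not overlap, and the difference was -0.59 ± 0.15 (SE, adjusted p = 0.018, limma), a value that kept an adjusted p below 0.05 under all 17 alternatives in which the probe was tested but was smaller, at -0.38, with normexp background correction. A second probe, detected in B6 only, was called at -1.03 (adjusted p = 0.023), but BTBR/R replicate 2, at -4.77, lay above B6 replicate 4, at -4.87, no bound on the fold could be given, and the call was lost under 9 of 17 alternatives.

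Over all 61 member probes, 3 were called lower by at least 2-fold (those of Opalin, Cspg4 and Enpp6) and 1 higher (Ugt8a), where 2.27% of all 56605 probes were called lower. All 4 were dim probes that were not well above background in any BTBR/R mouse, and the 4 became 2 when BTBR/R replicate 3 was left out.

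**Figure D4:**
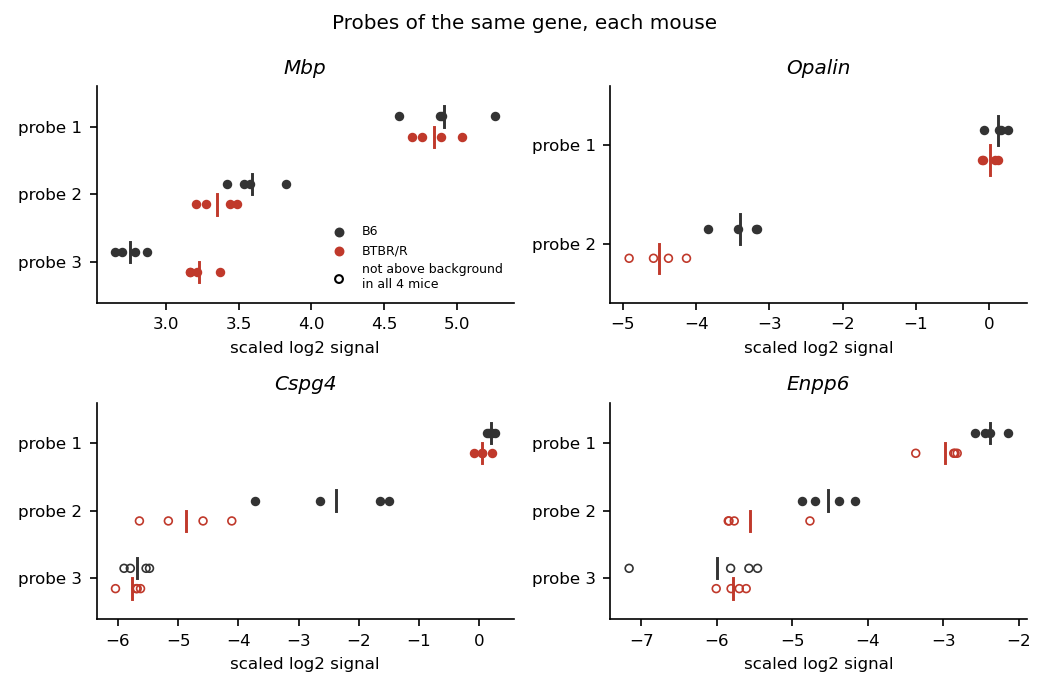
Scaled log2 signal of every probe of Mbp, Opalin, Cspg4 and Enpp6, with 1 point per mouse, bars at the strain means and open points where the probe was not above background in all 4 mice of the strain. The Mbp probe that was higher in BTBR/R stands beside 2 that were not, and the brightest probes of Opalin and Cspg4 overlapped between strains while the dimmer detected probe of each did not.

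Of the other genes enriched in oligodendrocytes, Trf changed most. Trf encodes transferrin, the iron carrier, and read 6.06, 5.88, 5.99 and 5.69 in B6 mice 1 to 4 and 5.29, 5.40, 5.37 and 5.09 in BTBR/R mice 1 to 4. All BTBR/R mice were lower than all B6 mice on both Trf probes, which differed by -0.62 ± 0.10 (SE, 1.54-fold, adjusted p = 0.0023) and -0.57 ± 0.12 (adjusted p = 0.0064) in limma. Both calls held under all 18 alternatives.

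Apod, an apolipoprotein that binds small lipids, fell on 1 of 2 probes, with a difference of -0.28 ± 0.09 (adjusted p = 0.042, limma) and with BTBR/R replicate 3, at 3.55, above B6 replicate 4, at 3.48. That call was lost under 9 of 18 alternatives, over which it ran from -0.35 to -0.17, and the brighter Apod probe differed by -0.21 (95% interval -0.45 to 0.02), passing with a replicate block, at -0.21, and without B6 replicate 4, at -0.28. Car2, a carbonic anhydrase, differed by 0.07 (-0.09 to 0.22), Ndrg1, a cytoplasmic protein linked to stress and differentiation, by -0.07 (-0.25 to 0.11) and Qdpr, which regenerates tetrahydrobiopterin, by 0.01 to 0.02 on 3 probes. The Qdpr intervals all lay within 0.25 of 0. Enpp2, which makes lysophosphatidic acid, differed by -0.11 to 0.08 on 3 probes and did not pass the test.

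Where several probes of a gene were detected in all mice they mostly gave similar differences. This was so for 9 of 11 genes, whose probes lay within 0.2 of each other, and the exceptions were Mobp and Mbp.

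The member genes also varied together among mice of the same strain. Of the 32 representative probes detected in all mice, 23 were highest in replicate 1 among the B6 mice and 20 were lowest in replicate 4. Among the BTBR/R mice, 23 were highest in replicate 2 and 21 lowest in replicate 4. The mean over the 32 probes was 2.83, 2.66, 2.69 and 2.50 in B6 mice 1 to 4 and 2.52, 2.59, 2.43 and 2.36 in BTBR/R mice 1 to 4. Only B6 replicate 4 overlapped with the BTBR/R mice. The strain difference of this mean was -0.20, next to SDs among mice of 0.13 in B6 and 0.10 in BTBR/R.

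By role, the mean signal of the myelin proteins was 3.76, 3.58, 3.72 and 3.42 in B6 mice 1 to 4 and 3.37, 3.43, 3.25 and 3.21 in BTBR/R mice 1 to 4, and the strains overlapped only where BTBR/R replicate 2 lay above B6 replicate 4. That of the precursor and newly forming cell genes lay at 1.65 to 1.89 in B6 and 1.61 to 1.85 in BTBR/R, with a difference of -0.02. A test of the difference between these roles was not made.

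Markers of other cells also varied among mice of the same strain. The mean of 7 detected choroid plexus genes, which mark the secretory epithelium of the ventricles, was 0.44, 0.01, -0.63 and -1.71 in B6 mice 1 to 4 and -1.24, -0.21, -0.33 and -0.55 in BTBR/R mice 1 to 4. It was highest in B6 replicate 1 and in BTBR/R replicate 2, the mice with the highest member means. The summed level of these genes, in multiples of the 75th percentile, ranged from 3.31 to 42.6 in B6 and from 6.86 to 26.6 in BTBR/R, and 0 of their 8 probes detected in all mice passed the test between strains, in limma (0 at an unadjusted p below 0.05) or by the methods' t-test. Enpp2, which the choroid plexus also makes, read 5.04, 4.95, 4.74 and 4.49 in B6 mice 1 to 4, in the same order as the choroid plexus mean of those mice. The mean of 10 cortical excitatory neuron genes was 1.96, 2.04, 2.06 and 2.16 in B6 mice 1 to 4 and 2.03, 2.11, 2.05 and 2.21 in BTBR/R mice 1 to 4. It was lowest in the B6 mouse with the highest member mean and highest in replicate 4 of both strains. However, BTBR/R replicate 2, with the highest member mean of its strain, came next to replicate 4. In B6 replicate 1 and BTBR/R replicate 2, the mean of 10 astrocyte genes was the highest of its strain, at 3.31 and 3.17. That of 10 striatal projection neuron genes was the lowest there, at 3.38 and 3.23.

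Between the strains, the cortical neuron list had 1 lower and 4 higher of 16 probes, with summed levels of 115 to 128 in B6 and 118 to 137 in BTBR/R. The striatal projection neuron list had 3 lower and 0 higher of 18 probes, with sums of 220 to 235 in B6 and 201 to 229 in BTBR/R. The astrocyte list had 7 lower and 0 higher of 21 probes (sums of 358 to 401 and 295 to 334), the microglia list 7 lower and 2 higher of 12 (71.2 to 73.6 and 57.0 to 62.1) and the endothelial and mural list 2 lower and 0 higher of 12 (31.0 to 32.9 and 27.0 to 31.0). Against the 13.9% lower and 13.0% higher of all detected probes, the lower share was 33.3% for the astrocyte list and 58.3% for the microglia list, 16.7% for the striatal and the endothelial and mural lists, and 6.25% for the cortical neuron list, 25.0% of which was higher. The part that the makeup of the dissected tissue had in the differences of the members was not tested.

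**Figure D5:**
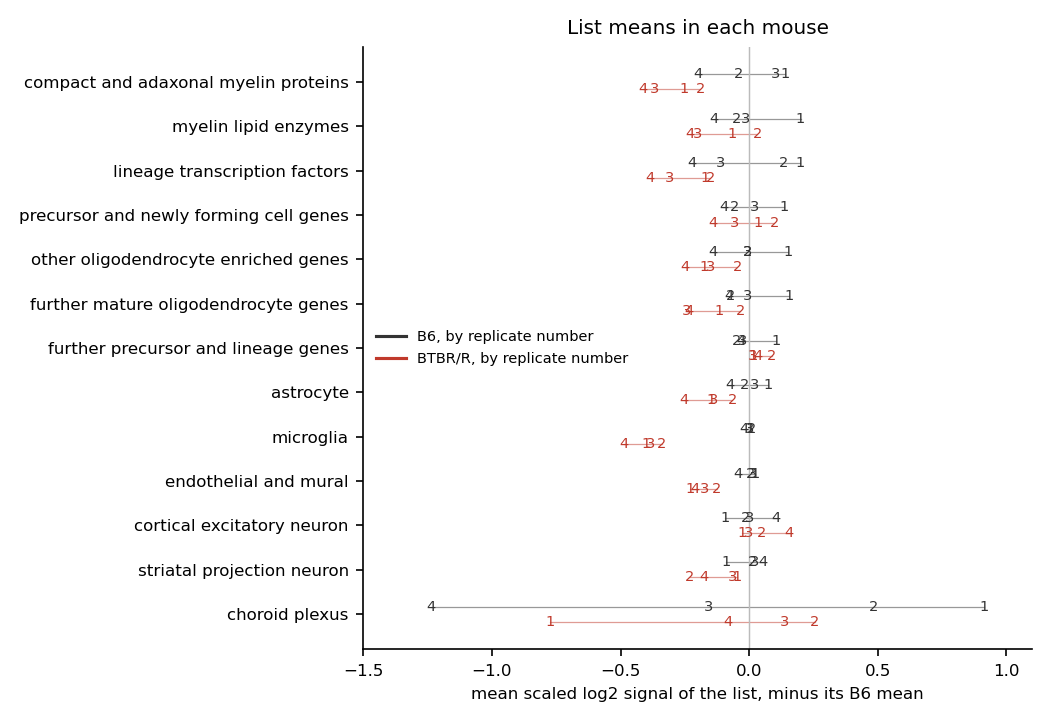
Mean scaled log2 signal of each gene list in each mouse, as the distance from the B6 mean of that list (horizontal axis), with digits for the replicate number and lines for the range within a strain. Replicate 1 of B6 is highest for all 5 groups of member genes, and the choroid plexus list spreads over more than 2 log2 units within B6.

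A wider list of 62 oligodendrocyte genes outside the 33 was read in the same way, without a measure of which cells gave their signals. Of its 89 probes detected in all mice, 14 fell (15.7%), 6 rose (6.74%) and 69 did not pass the test, and the median difference was -0.08. The share that fell was close to the 13.9% of all detected probes, and the share that rose was below their 13.0%. Among the 36 genes of mature oligodendrocytes, 10 of 54 probes fell and 1 rose, with a median of -0.15. Among the 26 precursor and lineage genes, 4 of 35 probes fell and 5 rose, with a median of 0.01. The single called probe detected in all mice was that of Id4, an inhibitor of the basic helix-loop-helix factors to which Olig1 and Olig2 belong. Id4 read 1.64, 1.65, 1.64 and 1.49 in B6 mice 1 to 4 and 0.50, 0.68, 0.32 and 0.40 in BTBR/R mice 1 to 4. The strains were far apart, and the difference was -1.13 ± 0.09 (SE, 2.19-fold lower, adjusted p = 2.8e-05, limma).

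Other genes of the wider list, chosen after their values were seen, fell by less than 2-fold. Il33, a cytokine held in the nucleus, differed by -0.62 ± 0.09 (adjusted p = 0.0014) and -0.88 ± 0.15 (adjusted p = 0.0022) on 2 probes. Gjc3, a gap junction connexin, differed by -0.33 and -0.71 on 2 probes. Id2, a relative of Id4, differed by -0.31 and -0.90 on 2 probes. In the other direction, C1ql1, a secreted protein of precursor cells, rose by 0.71 ± 0.07 (adjusted p = 0.00015) and Sox8, a relative of Sox10, by 0.38 ± 0.07 (adjusted p = 0.0029), all in limma. A dim probe of Ninj2, an adhesion protein, was called at -1.24 (adjusted p = 0.00017) without being well above background in any BTBR/R mouse, and no bound on its fold could be given.

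Promoters of the member genes were read from RefSeq (GRCm38.p6), 250 bases before to 50 after each transcription start, to describe the letters that the genes share. The table held 34 promoters of 23 of the 33 genes, and several promoters of 1 gene can overlap. The core of the sites bound by SOX factors, searched as ACAAAG or ACAATG on either strand, was found in 17 of the 34, where 28.6% of all 32851 promoters held it. The MYRF motif, searched as CTGGCAC or CTGGTAC on either strand, was found in 6 (17.6%), against 7.10% of all promoters, and the E-box CATATG of OLIG factors in 3 (8.82%), against 3.91%. These shares are descriptions of 1 gene list and no test was made of them.

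The promoters of Ermn and Mobp are printed since the representative probe of each kept its adjusted p below 0.05 under every alternative and the table held 1 promoter for each, while it held none for Trf. Capitals mark matches to the motifs named above, which here were all SOX core matches, 1 in Ermn (chr2:58052815-58053114, GRCm38.p6, minus strand) and 6 in Mobp (chr9:120149492-120149791, plus strand).
Ermn promoter: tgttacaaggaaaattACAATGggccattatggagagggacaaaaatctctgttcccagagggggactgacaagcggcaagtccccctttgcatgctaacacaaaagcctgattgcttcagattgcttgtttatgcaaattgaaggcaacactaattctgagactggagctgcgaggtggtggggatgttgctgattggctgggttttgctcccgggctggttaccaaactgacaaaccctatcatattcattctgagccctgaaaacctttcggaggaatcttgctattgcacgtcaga
Mobp promoter: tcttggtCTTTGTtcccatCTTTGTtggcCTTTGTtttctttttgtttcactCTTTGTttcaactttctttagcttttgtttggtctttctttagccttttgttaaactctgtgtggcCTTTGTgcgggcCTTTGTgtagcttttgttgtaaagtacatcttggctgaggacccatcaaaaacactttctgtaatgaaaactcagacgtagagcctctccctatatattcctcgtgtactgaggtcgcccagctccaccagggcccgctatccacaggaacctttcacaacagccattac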

How the data were processed

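RNA of 4 B6 and 4 BTBR/R mice was measured on 8 Agilent 1-colour arrays, and samples were grouped by strain from the labels. The authors deposited Feature Extraction (10.7.3.1, from the submitters' processing notes) intensities of every spot and log2 values from GeneSpring, which equal the log2 of the processed intensity after 1 constant per array is subtracted. Control spots were left out, as were outlying spots (36 to 52 per array that were not controls), and spots of a probe were averaged, which left 56605 probes. No spot was saturated. Processed signals were put on the log2 scale, the 75th percentile of each array was subtracted, and limma 3.58.1 (lmFit and eBayes) was run in R 4.3.3. P-values were adjusted by Benjamini-Hochberg across every probe tested. Plots were drawn with matplotlib 3.10.9, and tables were made with pandas 2.3.3 and numpy 2.4.6 in Python 3.11.15. Depth has no count on arrays, and 4 mice per strain limit the precision. The fit was tested on simulated data.

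The members and lists were chosen with earlier results of these data known, and no list was tested as a set. Every member was accounted for by its representative probe, the one with the highest mean signal among those detected on all 8 arrays, or among all of its probes where none was. Members with a called probe or a representative probe past the adjusted p were given in full, others by difference and interval, and genes of other lists where a called probe was detected on all arrays of a strain. A strain in which a probe was not well above background on any array was bounded by the higher, per array, of the lowest detected signal and the signal of the probe. All 33 symbols were found in RefSeq. The settings tried were the authors' log2 values, quantile normalization, normexp (offset 50) for the background, the array median or 7 spike-in probes for scaling, 2 detection filters, the methods' t-test, limma trend and robust, a replicate block, and leaving out each mouse.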

Additional observations from a re-analysis of the deposited data

Results flagged for a closer look

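Among the 64 groups of 4 mice formed by the 32 representative probes and 2 strains, 2 held a mouse that stood far from the others, measured as its gap to the nearest mouse over the range of the group. Chance gives such a gap in about 1 of 20 groups. For Nkx2-2, B6 replicate 2 read -0.69, with a gap of 0.848 of the range. For Ndrg1, B6 replicate 1 read 4.46 where the other B6 mice lay between 4.16 and 4.19, with a gap of 0.900 of the range.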

How the results depend on the processing

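Member probes called at 2-fold numbered 4, but 1 with normexp background correction, 2 with quantile normalization, 2 with spike-in scaling and 0 among probes detected on all 8 arrays. There, without a fold limit, 12 member probes passed the adjusted p in limma, and the methods' t-test over all probes gave 8. Over all probes the 12697 calls (11413 higher) became 563 with normexp (231 higher), 2200 with quantile normalization (544 higher), 1557 among probes detected on every array of 1 strain and 631 among those detected on all 8. Calls of the wider oligodendrocyte list (6) became 1, 2, 2 and 1 under these 4 settings, and those of the other cell type lists (10) became 3, 4, 4 and 3. The 9 member probes past the adjusted p became 14 with median scaling and 14 with limma trend and robust, and the 5 representative probes among them became 8 and 8. Leaving out each mouse gave 11792 to 12929 calls over all probes, 2 to 5 member calls, 5 to 13 member probes past the adjusted p, 3 to 7 representatives, 5 to 7 calls of the wider list, 9 to 11 of the other lists and a member median of -0.20 to -0.10.

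No difference that passed the adjusted p on a representative probe changed sign. Differences near 0 did: with spike-in scaling Mbp was 0.047, Olig1 0.0019, Enpp2 0.011, Ndrg1 0.045, Gpr37 0.11 and Pdgfra 0.0090, with median scaling Plekhb1 was -0.024 and Qdpr -0.021, with normexp Ugt8a was -0.0049, and the mean over its probes was 0.057 for Mbp. Leaving out each mouse gave -0.17 to 0.049 for Mbp, -0.053 to 0.059 for Plekhb1, -0.0072 to 0.12 for Ugt8a, -0.097 to 0.0016 for Ndrg1, -0.042 to 0.072 for Qdpr and -0.046 to 0.074 for Gpr37. The causes were not tested.

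Replicate numbers did not pair the mice, since the deviations of same-numbered mice correlated at 0.00, -0.07, -0.04 and 0.16. A replicate block gave 3 called member probes, 11 member probes past the adjusted p, 7 representatives, 11693 calls over all probes, 6 of the wider list, 9 of the other lists and a member median of -0.14.

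The lowest detected signal was higher on the BTBR/R arrays, so dim probes limit the comparison there. Effects of strain and of slide column cannot be told apart, and 4 mice per strain bound every interval.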

Other observations

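Genes of other cell lists that were called on a probe detected on all arrays of a strain were few. C1qb, a chain of the first complement component made by microglia, was 1.78 ± 0.07 in B6 and 0.36 ± 0.07 in BTBR/R (SD, n = 4 each), a difference of -1.42 (adjusted p = 8.4e-06, limma). Pde10a, a phosphodiesterase of striatal projection neurons, differed by -1.07. The fractalkine receptor Cx3cr1 gave 1 probe at 1.71 and another at -0.71, both past the adjusted p, so no direction can be given for that gene. A dim probe of Abcb1a, a transporter of brain endothelium, differed by -1.51 and was not well above background in any BTBR/R mouse, and no bound on its fold could be given.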
